A study of Mus musculus with 38 samples.

Results

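H3K4me1 domains of epidermal stem cells (EpdSCs) were compared between uninduced mouse skin and skin that had been grafted and induced to make SOX9 for 12 weeks. The uninduced group (D0) carried the alleles K14rtTA and TRE-myc-Sox9 and had received no doxycycline (DOX). The W12 group carried the same alleles and came from back skin of newborn pups that was grafted onto immunocompromised Nude female hosts, left to heal and then given DOX for 12 weeks. In both groups the Krt14 promoter drives the rtTA activator, so that DOX induces MYC-tagged SOX9 in the skin epithelium. The labels give the mice as male and the start of DOX as postnatal day 21. Both were sorted by the same gate, negative for CD31, CD45, CD117 and CD140a, high for CD49f, negative for CD34 and high for Ly6A. Grafting, wound healing, host, age and SOX9 differed together between the groups, and their effects cannot be told apart.

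Each group consisted of 2 H3K4me1 libraries, 1 from a high and 1 from a low digest with micrococcal nuclease, and each library held both replicates. In the W12 libraries 1 replicate of W2 (2 weeks of DOX) was sequenced along, told apart by barcode. The chromatin was profiled by MINT-ChIP, a method that tags the chromatin of each sample with a barcode and then precipitates the samples together. All libraries of a group had been merged before domains were called, so that each group is represented by 1 list. No spread between replicates could be had, and differences are given without p-values. The 95% confidence intervals given with shares are exact (Clopper-Pearson) and cover counting error only.

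H3K4me1 marks enhancers. It is laid down mainly by the methyltransferases MLL3 and MLL4 on enhancers that are primed or active, and enhancers that are active carry H3K27ac in addition. SOX9 is a pioneer transcription factor of hair follicle stem cells (HFSCs), where it recognises its motif in closed chromatin. In the epidermis GATA3, AP1 and p63 are among the factors that hold the epidermal fate. The comparison asks which enhancer regions of EpdSCs gained or lost the mark after long exposure to SOX9.

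The D0 list held 87287 domains on the autosomes, X and Y and the W12 list 74316, or 161603 together, out of 384013 H3K4me1 domains in the lists of all 5 time points of skin. A domain was called lost when it was in the D0 list and no W12 domain overlapped it by 1 bp, and gained when it was in the W12 list and no D0 domain overlapped it. Of the D0 domains, 27265 were lost, or 31.2% (30.9 to 31.5%). Of the W12 domains, 11618 were gained, or 15.6% (15.4 to 15.9%). The remaining 60022 D0 domains and 62698 W12 domains were shared.

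The strongest gained and lost domains that also carried H3K27ac show what these regions look like in sequence. For each kind, the first 3 domains by p-value that held an H3K27ac peak of the same time point were taken, and 200 bases around the summit of their highest-scored peak are printed from the RefSeq sequence of GRCm38, forward strand, 5′ to 3′. Capitals mark matches on either strand. The SOX motif was searched for as ACAAAG and in a variant form as ACAATG, and the motif of RUNX factors was searched for as TGTGGT. The motif of GATA factors was searched for as AGATAA, and that of AP1 factors was searched for as TGANTCA. The gained windows were these.
Gained window 1: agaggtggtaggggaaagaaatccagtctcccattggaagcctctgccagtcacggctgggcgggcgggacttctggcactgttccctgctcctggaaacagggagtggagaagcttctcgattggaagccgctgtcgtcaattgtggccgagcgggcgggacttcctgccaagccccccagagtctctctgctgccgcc
Gained window 2: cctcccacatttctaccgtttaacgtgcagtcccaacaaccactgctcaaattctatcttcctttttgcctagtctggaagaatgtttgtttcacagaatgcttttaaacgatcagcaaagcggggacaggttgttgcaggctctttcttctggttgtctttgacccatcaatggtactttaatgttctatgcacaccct
Gained window 3: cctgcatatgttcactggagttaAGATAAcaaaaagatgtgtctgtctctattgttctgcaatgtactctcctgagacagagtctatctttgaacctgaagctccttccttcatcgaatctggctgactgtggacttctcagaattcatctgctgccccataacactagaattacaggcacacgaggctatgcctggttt
The lost windows were these.
Lost window 1: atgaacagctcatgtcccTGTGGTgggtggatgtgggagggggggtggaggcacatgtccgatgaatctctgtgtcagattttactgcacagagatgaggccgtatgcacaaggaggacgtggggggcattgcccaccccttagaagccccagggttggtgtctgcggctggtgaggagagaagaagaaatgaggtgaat
Lost window 2: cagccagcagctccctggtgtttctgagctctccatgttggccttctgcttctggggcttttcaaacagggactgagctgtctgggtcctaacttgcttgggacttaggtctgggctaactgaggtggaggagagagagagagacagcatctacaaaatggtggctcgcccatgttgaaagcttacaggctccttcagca
Lost window 3: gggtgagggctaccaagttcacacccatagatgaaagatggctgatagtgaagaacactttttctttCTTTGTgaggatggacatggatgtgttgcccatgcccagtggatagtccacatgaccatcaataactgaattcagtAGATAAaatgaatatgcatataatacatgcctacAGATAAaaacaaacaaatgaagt

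Gained window 1 lay at chr11:3123841-3124040, inside the gained domain with the smallest p-value, a region of 59600 bp over *Sfi1* and *Pisd-ps1*. Since *Pisd-ps1* is a pseudogene copy of *Pisd*, the placement of reads there is uncertain, and D0 already had 4 H3K27ac peaks under it. Gained window 2 lay at chr14:120146666-120146865 in the non-coding gene *Gm4681*, and its domain carried 3 H3K27ac peaks at W12 and none at D0. Gained window 3 lay at chr14:9961403-9961602 in an intron of *Fhit*, a tumour suppressor at a fragile site, and held 1 GATA match. Lost window 1 lay at chr11:114177144-114177343 between genes, with *Sdk2* as the nearest coding gene, and held 1 RUNX match. Lost window 2 lay at chr17:51790829-51791028 in an intron of *Satb1*, a chromatin organiser that p63 regulates in epidermis, and held none of the 4 motifs. Lost window 3 lay at chr5:17458606-17458805 outside annotated genes and held 1 SOX and 2 GATA matches. None of the 6 windows overlapped an annotated exon. The H3K27ac peaks of the D0 list had a fold enrichment of 3.998 and a score of 25 under each lost window. Those of the W12 list had fold enrichments of 21.2, 13.5 and 6.38 under the gained windows in order, the first in the region of uncertain read placement. Since the values come from different lists, they do not show that peaks in lost domains were weaker.

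The centres of gained and of lost domains differed in the motifs they held. In gained domains, the AP1 motif was found in 50.5% (49.6 to 51.4%) of the central 1000 bp windows, against 35.4% (35.05 to 35.8%) of shared W12 domains and 37.8% of all W12 domains. In lost domains it was found in 29.8% (29.3 to 30.4%), against 34.9% (34.5 to 35.3%) of shared D0 domains. The SOX motif was likewise most frequent in gained domains, at 82.5% (81.8 to 83.2%), against 75.7% (75.3 to 76.0%) in shared W12 domains. The RUNX motif, recognised by RUNX1 and its relatives, was present in 60.7% of gained domains (59.8 to 61.6%), 54.7% of shared W12 domains and 52.1% of lost domains. The GATA motif had another pattern, since it was present in 52.5% (51.9 to 53.1%) of lost domains, 43.9% (43.5 to 44.3%) of shared D0 domains and 43.7% (42.8 to 44.6%) of gained domains. Matches to different motifs can share bases at their ends, and a match is only a string of letters.

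**Figure D1:**
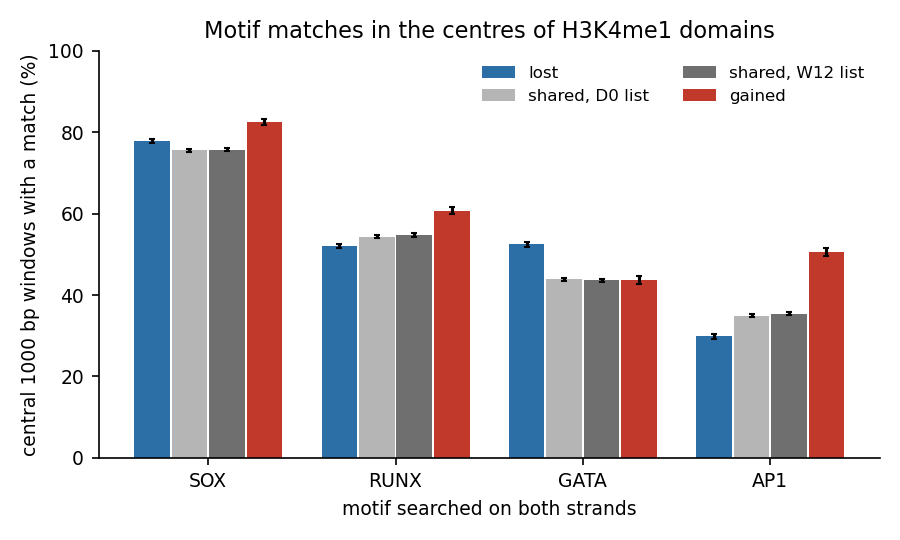
Share of central 1000 bp windows of H3K4me1 domains (vertical axis, %) that hold each motif on either strand (horizontal axis), for lost domains (blue), shared domains of the D0 list (light grey), shared domains of the W12 list (dark grey) and gained domains (red); bars start at 0 and error lines are exact 95% intervals. Gained domains stand highest for SOX (82.5%), RUNX (60.7%) and AP1 (50.5%), and lost domains for GATA (52.5%).

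Base composition moved with these shares. Median GC content was 45.0% in gained, 44% in lost and 46.1% in shared windows, and repeats made up 19.6%, 20.5% and between 19.3% and 19.4% of their bases. Within windows of 44 to 48% GC, the AP1 motif was in 50.5% of gained, 37.7% of shared W12 and 28.5% of lost domains. In the same GC range the GATA motif was in 49.5% of lost and 45.8% of shared D0 domains, and the SOX motif in 83.1% of gained and 78.6% of shared W12 domains. The order of gained above shared held for AP1, SOX and RUNX in each of the 5 GC ranges examined. The order of lost above shared for GATA also held in each of them. Gained and shared W12 domains differed by 0.13 points in GATA over all windows, with the sign turned in the central 400 bases (-0.12) and outside repeats (-0.18), and within each GC range the gained share was the lower one, for example 42.0% against 45.3% at 44 to 48% GC. For the SOX motif, lost and shared D0 domains differed by 2.16 percentage points over all windows but by only 0.38 points in the central 400 bases. Among domains over 2500 bp from a start site, AP1 was in 51.3% of gained and 39.5% of shared W12 domains, and SOX in 82.8% and 77.7%. Of such lost and shared D0 domains, 30.8% and 39.3% held AP1, and 78.7% and 77.9% held SOX.

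The SOX and AP1 shares of gained domains also differed with the number of intermediate lists that held the domain. Gained domains that were found in none of the W1, W2 and W6 lists had the highest AP1 share, 57.0% (55.3 to 58.7%), and an SOX share of 81.2% (79.8 to 82.5%). Those found in all 3 lists had an AP1 share of 41.6% (39.2 to 44.03%) and an SOX share of 87.8% (86.1 to 89.3%). Gained domains seen throughout were thus richer in the SOX letters and those seen at W12 alone in the AP1 letters, and median GC was 44.3% in the former and 45.1% in the latter. The AP1 order was also found in shared W12 domains, with 48.6% where none of the 3 lists held the domain and 33.3% where all did. For SOX the shared domains had 76.5% and 75.6%. The intervals of gained domains in none and in all 3 lists overlapped for RUNX, at 60.4% (58.7 to 62.03%) and 58.2% (55.8 to 60.6%), and for GATA, at 43.7% (42.02 to 45.4%) and 46.0% (43.5 to 48.4%). Among lost domains, the GATA share was 55.0% where no later list held the domain and 48.7% where W1, W2 and W6 all did, and among shared D0 domains 48.2% and 43.3%. Around the summits of H3K27ac peaks, within 200 bases, the W12 summits in gained domains held the SOX motif in 28.0% and the AP1 motif in 8.12% of 960 windows, against 23.4% and 5.74% of those in shared domains. The GATA motif was also more frequent at these gained summits, at 11.5% (9.51 to 13.6%) against 8.86% (8.49 to 9.24%) in shared domains, unlike in the wider windows. At D0 summits it was in 9.79% (7.48 to 12.5%) of 572 windows in lost domains and in 7.78% (7.46 to 8.11%) in shared domains. The AP1 share of lost summits, 5.94% (4.15 to 8.21%), was not below that of shared D0 summits, 5.25% (4.98 to 5.53%). W12 summit windows in gained domains had a median GC content of 46% and a mean repeat content of 20.4%, against 49% and 16.3% in shared domains. Outside repeats the SOX shares of these summits were 22.7% and 19.4% and the GATA shares 10.1% and 7.59%. The part of GC content in the summit shares was not tested.

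Lost and gained domains were narrow and weak in their own list. Lost domains had a median width of 1400 bp against 3000 bp for shared D0 domains, and a median −log10 p of 18.8 against 83.3. Gained domains had a median width of 2000 bp against 2800 bp for shared W12 domains, and a median −log10 p of 12.1 against 30.02. In the D0 list cut into 5 equal bins by p-value, 1.95% of the strongest bin was lost, and 63.3% of the weakest. In the W12 list the gained share went from 0.848% in the strongest bin to 35.5% in the weakest. In every bin the lost share at D0 was above the gained share at W12.

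**Figure D2:**
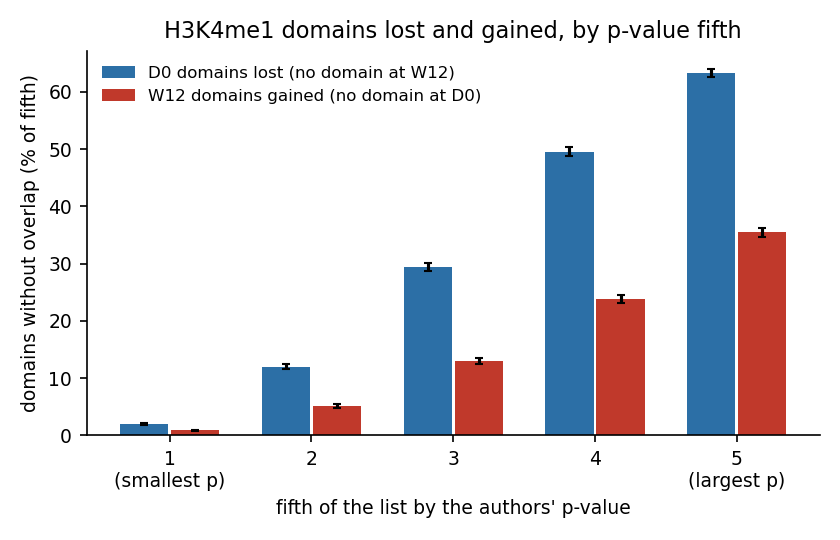
Share of H3K4me1 domains without an overlapping domain in the other list (vertical axis, % of a bin) in 5 equal bins of p-value within the list (horizontal axis), for D0 domains lost at W12 (blue) and W12 domains gained (red), with exact 95% intervals. Both rise toward the weakest bin, from 1.95% to 63.3% for lost and from 0.848% to 35.5% for gained domains.

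The lists differed in strength, which bears on the number of losses. The median −log10 p was 49.6 at D0 and 25.4 at W12, and a p-value of 0 was given to 11.1% of D0 and 1.73% of W12 domains. The depth of the H3K4me1 libraries is unknown, so a lost domain was not detectable in the W12 list rather than shown to be absent. When the D0 list was shortened to the 74316 domains of the W12 list by p-value, 18922 domains (25.5%) were lost and 15421 (20.8%) gained, so that losses still outnumbered gains, but by less. The change in covered bases was not carried by whole domains alone. Both lists shared 209 Mb, D0 alone covered 101 Mb and W12 alone 60.8 Mb. Of the bases covered at D0 alone, 53.2% lay at the edges or gaps of shared domains, and of those covered at W12 alone, 58.7% did.

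Gained and lost domains alike lay far from promoters. Of the gained domains 86.3% (85.6 to 86.9%) and of the lost domains 84.1% (83.7 to 84.5%) were over 2500 bp from any annotated start site, against 64.4% of shared W12 and 63.3% of shared D0 domains. A start site lay under 5.92% of gained and 5.93% of lost domains but under 21.03% of shared W12 and 22.5% of shared D0 domains. The centre of a gained domain was in an intron in 50.1% and between genes in 45.3% of cases. The nearest D0 domain was a median of 7200 bp from a gained domain, and the nearest W12 domain 6800 bp from a lost domain.

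Most gained domains were present before W12. The share of gained domains that an H3K4me1 domain overlapped was 18.7% (18.0 to 19.5%) at W1, 44.1% (43.2 to 45.0%) at W2 and 60.3% (59.4 to 61.2%) at W6. The 3338 gained domains (28.7%) found in none of these lists were, among the skin lists, seen only in grafted skin, while 3954 (34.0%) were in both the W2 and the W6 list. W2 and W12 were partly sequenced in the same libraries, and the part of this in the W2 share was not tested. Most lost domains, in contrast, were missing from the W1 list, but 10.9% were missing there and found at W2, and 7.23% were found at W6 alone. The W1 list was also shorter than the D0 list, with 69439 domains, and weaker, with a median −log10 p of 30.4 against 49.6. The part of this in the W1 share was not tested. Of the lost domains 38.0% (37.4 to 38.6%) were found at W1, 30.04% at W2 and 30.2% at W6, and 43.8% (43.2 to 44.4%) were found at none of them. Another 3315 (12.2%) were present at W1, W2 and W6 and missing only from the W12 list. Among shared D0 domains 87.7% were found at W1, 84.7% at W2 and 93.0% at W6.

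**Figure D3:**
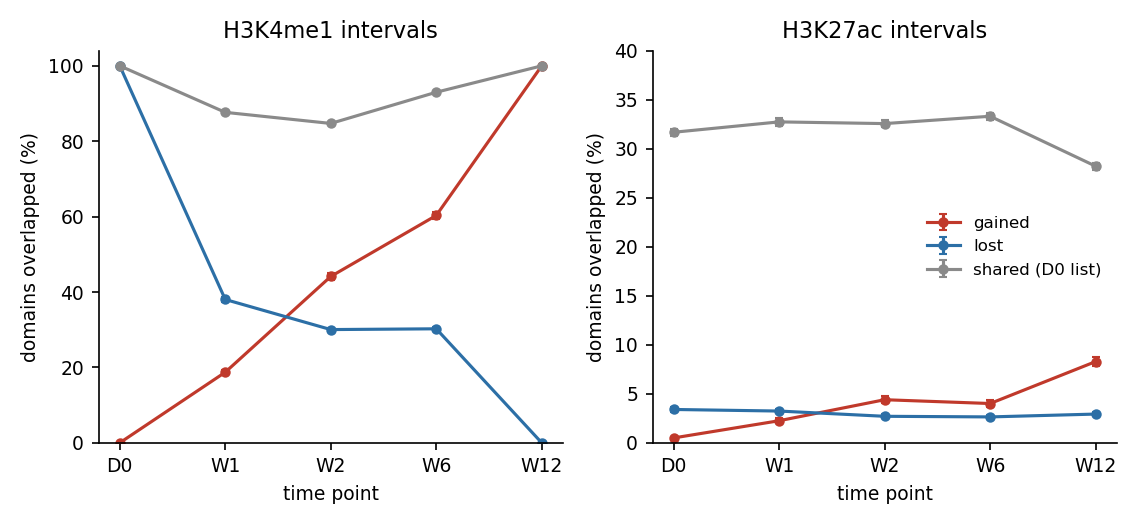
Share of gained (red), lost (blue) and shared (grey, D0 list) domains that an H3K4me1 domain (left) or an H3K27ac peak (right) overlaps (vertical axes, %), at each time point (horizontal axis, evenly spaced categories), with exact 95% intervals. The D0 and W12 points on the left are fixed by how the domains were chosen. Between them the gained domains go from 18.7% at W1 to 60.3% at W6 and the lost domains from 38.0% to 30.2%. On the right the gained domains go from 0.499% at D0, a value held low by the choice, to 8.29% at W12.

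Few gained or lost domains carried H3K27ac, which was measured with a different antibody. It was not used to choose them, but it is not independent of the choice. Among D0 H3K27ac peaks, 95.9% lay on a D0 H3K4me1 domain, and gained domains were chosen for having no such domain. A low D0 share of gained domains thus follows largely from the choice. An H3K27ac peak overlapped 0.499% (0.379 to 0.645%) of gained domains in D0 skin and 8.29% (7.79 to 8.81%) in W12 skin, with 2.26%, 4.40% and 4.01% in the lists of W1, W2 and W6. The share was above its D0 value at every later time point, but that D0 value was held low by the choice. The share at W12 was highest, 15.9% (14.1 to 17.7%), for gained domains that had been marked at W1, W2 and W6, and was 5.15% (4.43 to 5.96%) for those first seen at W12. The former were also stronger and wider, with a median −log10 p of 16.2 and 2200 bp against 9.35 and 1800 bp. By p-value bin of the W12 list, the share of gained domains with W12 H3K27ac was 4.36% in the weakest and 46.0% in the strongest bin. The part of strength in the difference by history was not tested. Of the 963 gained domains with H3K27ac at W12, 655 (68.0%) had H3K4me1 in an earlier list than H3K27ac, 279 (29.0%) had both first in the same list, and 29 (3.01%) had H3K27ac first. For 701 (72.8%) of the 963, H3K27ac was first found at W12. The H3K4me1 lists of W1, W2 and W6 held between 69439 and 79556 domains, and the H3K27ac lists between 29081 and 32544 peaks. The part of list size in this order was not tested.

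On lost domains the H3K27ac share was slightly lower at W12 than at D0. It cannot be set against the rise on gained domains, whose D0 share was held low by the choice. An H3K27ac peak overlapped 3.40% (3.19 to 3.63%) of lost domains at D0 and 2.93% (2.74 to 3.14%) at W12. Of those lost domains, 609 had H3K27ac at D0 only, 481 at W12 only and 319 at both. Among shared domains of the D0 list the share went from 31.7% at D0 to 28.2% at W12. The W12 lists of both marks also overlapped less than at other time points: 73.9% of W12 H3K27ac peaks lay on a W12 H3K4me1 domain, against between 94.1% and 97.4% elsewhere. The W12 H3K27ac list alone carries a mark in its name that may stand for a q-value limit. The largest q-value in it was 0.0428, and in the other 4 lists it was between 0.0409 and 0.0498. The part of this in the H3K27ac values at W12 was not tested.

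Cultured EpdSCs held the gained domains more often than the lost ones. An H3K4me1 domain of cultured EpdSCs without DOX overlapped 50.3% (49.4 to 51.2%) of gained and 31.7% (31.1 to 32.2%) of lost domains, against 77.4% of shared D0 domains. Hence the mark was present on gained domains in cells that had left the skin and had no induced SOX9. With wild-type (WT) SOX9 induced in culture the share of gained domains was 57.9% (57.0 to 58.8%), higher by 7.58 percentage points. With dHMG, a SOX9 that lacks the DNA-binding domain, it was higher by 1.61 points, and with dTA, which lacks the transactivation domain, by 6.96 points. On lost domains the same conditions differed from cells without DOX by -2.26, 0.789 and 0.0954 points, and on shared W12 domains by -1.69, -0.818 and -0.427 points. The culture lists held 110589 domains without DOX and 116042, 116326 and 123338 with WT, dHMG and dTA, and they covered 119.7 Mb without DOX and 133.1, 120.1 and 133.2 Mb with WT, dHMG and dTA. The covered length was thus ordered much as the gained shares were, and its part in them was not tested. How wound healing and growth in culture relate to the gained domains was not tested.

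Losses were more frequent on chromosome X. Of 2041 D0 domains on X, 1088 (53.3%, 51.1 to 55.5%) were lost, against 30.7% (30.4 to 31.0%) on the autosomes, where single chromosomes ranged from 27.9% (chromosome 11) to 33.0% (chromosome 18). The difference was present in every bin of p-value: in the middle bin 64.8% (61.0 to 68.4%) of X domains and 28.0% (27.3 to 28.7%) of autosomal domains were lost. Chromosome X held 2.34%, 1.84%, 1.62%, 2.13% and 1.54% of all domains in order from D0 to W12. The X share was lower than at D0 in each later list, least so at W6. The median −log10 p of these lists was 49.6, 30.4, 24.8, 34.4 and 25.4 in the same order, so that the X share was ordered much as list strength was. On X the median −log10 p was 56.1 at D0 and 18.4 at W12, against 49.3 and 25.5 on the autosomes. The bins use D0 p-values only, and the part of detection at W12 in the X losses was not tested. H3K27ac peaks on X did not follow, with 1.39% of all peaks at D0 and 1.54% at W12.

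**Figure D4:**
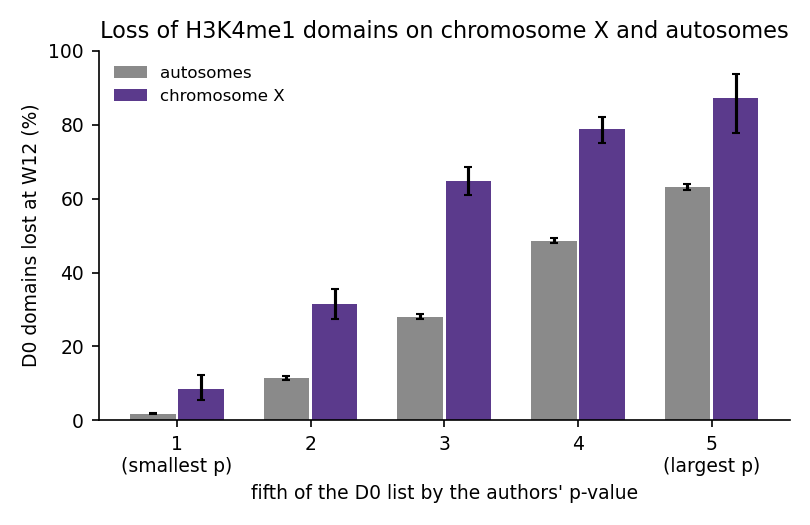
Share of D0 H3K4me1 domains lost at W12 (vertical axis, %) in 5 equal bins of p-value in the D0 list (horizontal axis), for autosomes (grey) and chromosome X (purple), with exact 95% intervals. The X share is above the autosomal share in all 5 bins, with 64.8% against 28.0% in the middle bin.

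Of the top 5 gained domains, the first and the third are those of gained windows 1 and 2. The second, 7800 bp wide in an intron of *Diaph1*, an actin-nucleating formin, was present from W1 on and carried H3K27ac at W1, W2, W6 and W12 but not at D0. The fourth, chr10:23175801-23179600 in an intron of *Eya4*, a transcriptional coactivator, was 330000 bp from the nearest D0 domain and was found again only at W6. The one after it, chr2:169627201-169631400, lay 1613 bp from a start site of *Tshz2*, a zinc-finger transcription factor, and only 200 bp from a D0 domain. Among the top lost domains were those in introns of *Fry* (chr5:150139601-150152600), *Satb1* (chr17:51785601-51797200) and *Adamtsl1* (chr4:86406401-86417400) and the one near *Sdk2* (chr11:114164001-114181800). These 4 were found at W1 in 2 or 3 pieces, and all but the one near *Sdk2* also at W6.

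Genes were examined through windows that reach 50 kb beyond either end of the gene. Of 21911 protein-coding genes, 1738 (7.93%) had at least 3 gained and 6859 (31.3%) at least 3 lost domains, which is what several means below, and 714 (3.26%) had both. Long genes have more room: the median body was 67.9 kb for genes with several gained and 35.4 kb for those with several lost domains, against 17.4 kb for all. Of the window of a typical gene, 18.2% was covered at D0 and 15.8% at W12, and the median change was -1.56 percentage points. The 1185 genes with several gained domains and more gained than lost had more H3K27ac peaks at W12 than at D0 in 64.9% of cases and fewer in 15.9%. For the 6536 genes with several lost and more lost than gained, the shares were 36.9% and 42.3%, and for all genes 34.6% and 31.6%. Since most H3K27ac peaks lay on H3K4me1 domains, these shares are not independent of how the genes were chosen. With lists of equal length 2813 genes had several gained and 3987 several lost domains.

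The genes with the largest excess of gained over lost domains were of varied function. *Pxdn*, which encodes a peroxidase that cross-links collagen IV in basement membranes, had 15 gained and 0 lost domains over chr12:29937608-30017658 and its flanks. Its window was covered to 8.70%, 7.70%, 23.4%, 19.9% and 33.6% in order from D0 to W12, and its H3K27ac peaks numbered 0, 1, 3, 0 and 8 in the same order. Coverage of *Pxdn* was thus above its D0 level from W2 on and highest in grafted skin. Only 1 of the 15 gained domains of *Pxdn* carried H3K27ac at W12. *Eps8*, an actin-capping adaptor of EGF receptor signalling, had 15 gained and 2 lost domains. Its coverage was 3.53% at D0 and 18.4%, 11.1% and 16.6% in the lists of W2, W6 and W12. Of its gained domains 12 were already present at W2, and 9 were present in culture with WT SOX9 against 2 without DOX. This was the largest such rise among the 12 genes named for gains. In the others the count rose, stayed equal or fell, for example 14 against 9 for *Pxdn*, 10 and 10 for *Basp1* and 7 against 10 for *Cdk17*.

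*Nrg1*, a ligand of ERBB receptors, had 18 gained and 3 lost domains, and the H3K27ac peaks in its window numbered 3, 3, 7, 11 and 16 in order of time. Of its 18 gained domains 0 carried H3K27ac at W12, so that these peaks lay elsewhere in the window. *Basp1*, a membrane-associated signalling protein, had 12 gained and 1 lost domain, and its coverage of 4.12% at D0 was 25.6% at W12 but between 11.8% and 12.4% at W2 and W6. *Cdk17*, a cyclin-dependent kinase, went from 17.8% to 44.8%, with 1 H3K27ac peak in its window at D0 and 11 at W12. Of its 13 gained domains 3 carried H3K27ac at W12. In *Basp1* and *Cdk17* coverage was higher at W12 than at W6, and in *Nrg1* it was lower, 9.46% against 11.2%. *Ltbp1*, which holds latent TGF-beta in the matrix, had 15 gained and 4 lost domains, with coverage of 13.1% at D0, 13.3% at W6 and 21.3% at W12. *Gpc6*, a glypican, and *Fstl4*, a follistatin-like protein, had 16 and 14 gained domains, of which 15 and 14 were found at W6. *Kcnh1*, a potassium channel, had 13 gained and 0 lost domains, of which 5 were found at W6. The others of the first 12 were *Cacna2d3* (17 gained, 0 lost), *Gmds* (16 and 3) and *Tnik* (14 and 3), a kinase of the Wnt pathway.

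**Figure D5:**
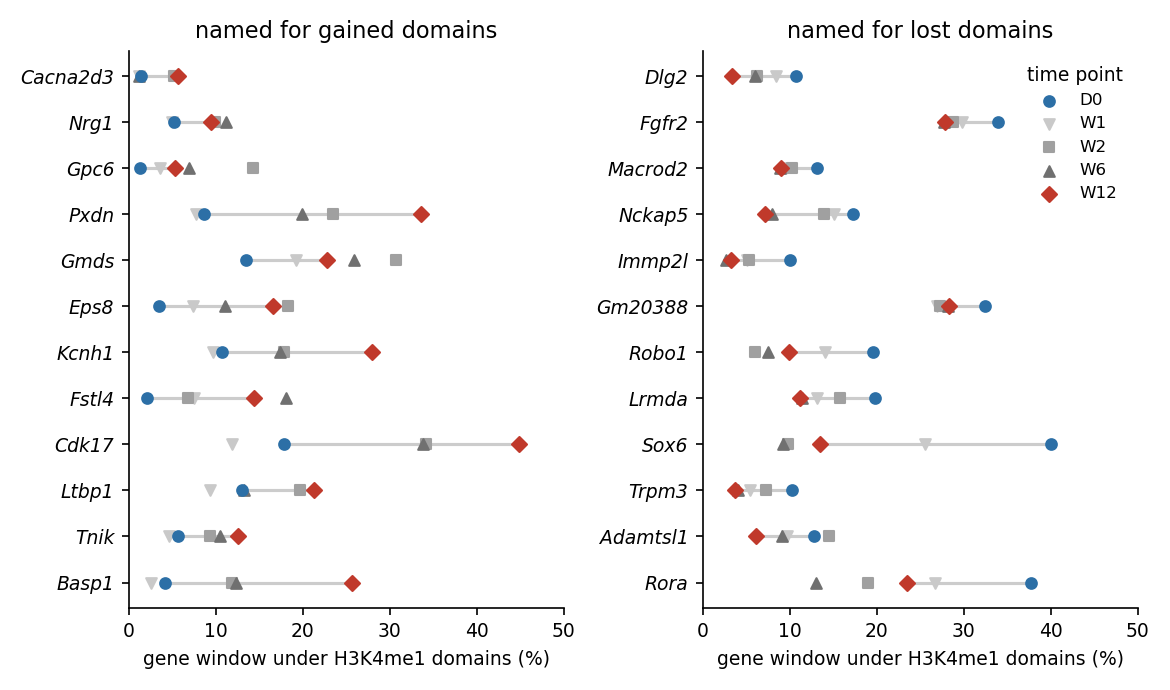
Share of each gene window (gene with 50 kb at either end) under H3K4me1 domains (horizontal axes, %) at D0 (blue circles), W1, W2 and W6 (grey triangles pointing down, squares, triangles pointing up) and W12 (red diamonds), for the 12 genes named for gained (left) and the 12 named for lost domains (right). The ordering of D0 and W12 follows from how the genes were chosen; *Sox6* goes from 40.0% to 13.4% and *Pxdn* from 8.70% to 33.6%.

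Among short genes, where a window holds little more than its flanks, the most gains were at an uncharacterised gene, *5530401A14Rik*, and at *Sparcl1*, an extracellular matrix protein, with 7 each. *Cd200*, which encodes an immune-inhibitory surface protein that marks HFSCs and stem-like cells of basal cell carcinoma, had 6 gained and 0 lost domains. Coverage of the *Cd200* window was 12.4%, 13.7%, 35.7%, 28.4% and 36.8% in order from D0 to W12. All 6 gained domains of *Cd200* were present at W6, 5 at W2, and 3 carried H3K27ac at W12. *Pthlh*, which encodes the parathyroid hormone-related protein, had 6 gained domains, with coverage of 7.49% at D0, 23.6% at W6 and 18.0% at W12. Its window held 0 H3K27ac peaks at D0 against 4 at W12, and 1 of its 6 gained domains carried H3K27ac at W12. *Ccl12* and the neighbouring *Ccl2*, chemokines that attract monocytes, had 6 gained domains each, and coverage of the *Ccl2* window was 27.5%, 14.2%, 36.4%, 50.7% and 50.9% in order from D0 to W12. Coverage of *Ccl2* was thus close at W6 and W12, but with flanks of 10 kb gained minus lost domains turned sign for *Ccl2*, to -1. *Adprh*, *Gm5460* and *Dnase2b* also had 6 gained domains and none lost.

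The genes with the largest excess of losses were mostly long. *Sox6*, a SOX factor without a transactivation domain of its own, stood out for how much of it was covered: the window was under domains to 40.0%, 25.5%, 9.73%, 9.16% and 13.4% in order from D0 to W12. *Sox6* had 32 lost domains and 1 gained domain. Of the lost domains of *Sox6*, 17 were found at W1, 1 at W2 and 2 at W6, so that those left at W1 were nearly all missing at W2, and its H3K27ac peaks numbered 12, 14, 4, 3 and 8 from D0 to W12. *Rora*, a nuclear receptor, followed a like course, with coverage of 37.7%, 26.6%, 19.0%, 12.9% and 23.4% in order from D0 to W12 and with 29 lost and 2 gained domains. H3K27ac peaks of *Rora* numbered 22 at D0, 3 at W6 and 19 at W12. In both genes coverage was lowest at W2 or W6 and higher again in grafted skin.

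*Robo1*, a receptor for SLIT guidance proteins, had 35 lost and 2 gained domains, and its coverage was 19.6% at D0, 6.03% at W2 and 9.92% at W12. *Dlg2*, a scaffold protein, had 47 lost domains and 1 gained, and kept 28 of the 47 at W1 and 19 at W6. *Nckap5*, *Immp2l*, *Macrod2*, *Lrmda*, *Trpm3* and *Adamtsl1* had between 31 and 49 lost domains each, in windows covered to under 20% at D0. *Fgfr2* and *Gm20388* were named for 62 and 67 lost domains, but their annotated bodies span 2961 kb and 4435 kb and hold many other genes, and they had 17 and 34 gained domains. With lists of equal length *Gm20388* had 4 more gained than lost domains. Among short genes *Slco4a1*, an organic anion transporter, had 11 lost and 0 gained domains, with coverage of 42.7% at D0, 14.2% at W6 and 19.1% at W12. *Kdm4a*, a histone H3 lysine demethylase, had 10 lost and 0 gained domains and went from 29.0% to 12.6%. *Krt222*, *Ggps1*, *Tmem94*, *Defb10*, *Gm11096* and *1700019N19Rik* had 9 lost domains each and none gained.

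The loci of SOX9 and of factors of both fates were examined one by one. The *Sox9* window had 1 gained and 1 lost domain and was covered to 22.2%, 10.2%, 30.3%, 29.0% and 27.1% in order from D0 to W12. The transgene also carries *Sox9* coding sequence, and its part in the reads over this locus was not tested. *Runx1*, an HFSC factor, had 5 gained and 7 lost domains. The gained domain chr16:92723001-92727400 in the *Runx1* body was found from W1 on and carried H3K27ac at W2, W6 and W12, and chr16:92821601-92826600 was found from W6 on with H3K27ac at W12. H3K27ac peaks of *Runx1* numbered 6 at D0 and 22 at W12, while coverage went from 36.8% to 46.9%. *Krt5*, a basal keratin, had 2 gained domains and 1 lost domain, and chr15:101686201-101691400 among them carried H3K27ac at W2, W6 and W12. *Gata3* had 0 gained and 2 lost domains and coverage of 47.3% at D0 and 34.1% at W12, and *Trp63*, the gene of p63, had 0 gained and 2 lost and coverage of 52.4% and 47.2%. *Ctnnb1* (45.1% and 43.4%) and *Vim* (9.92% at both) differed by less than 2 points.

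The gene lists were read against all genes, of which 24.2% were covered more and 61.6% less at W12 than at D0. Of all genes, 7.93% had several gained and 31.3% several lost domains. Of 13 HFSC transcription factors, 9 had higher and 4 lower coverage at W12 than at D0, with a median change of 2.55 percentage points, against -1.56 over all genes. Of the 13, 5 had several gained domains and 8 several lost, in windows with a median of 263 kb against 117 kb for all genes. The highest gain counts were 7 for *Foxp1* (with 18 lost, turned to 1 more gained than lost with lists of equal length), 6 for *Gli2* (with 6 lost), 5 for *Runx1* and 4 for *Tcf7l1* (with 7 lost). *Gli2*, an effector of Hedgehog signalling, was covered to 29.5% at D0, 63.2% at W2, 39.0% at W6 and 36.0% at W12, so that its cover was highest at W2. *Tcf7l1*, a repressor of Wnt targets, showed the same order, with 32.6%, 63.8%, 35.4% and 33.3%. *Nfia* went the other way, with 18 lost and 1 gained domain and coverage of 46.1% at D0 and 24.6% at W12, and *Nfib* had 9 lost and 3 gained.

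Of 16 HFSC and outer root sheath markers, 9 were higher and 7 lower in coverage at W12, 4 had several gained and 2 several lost domains. The median change was 1.31 points, while the median coverage of the list was 26.3% at D0 and 20.4% at W12. *Wif1*, a secreted Wnt inhibitor, had 6 gained and 0 lost domains, with no H3K27ac peak in its window at D0 or W12. *Lgr5* and *Cd34*, markers of bulge stem cells, had 2 gained domains each, and coverage went from 7.92% to 13.1% and from 6.21% to 15.4%, with 0 H3K27ac peaks at D0 and 2 and 3 at W12. *Krt15* was covered to 69.4% at D0 and 46.7% at W12, and *Lrig1*, with 4 lost domains, to 69.1% and 54.8%.

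Of 17 epidermal transcription factors, 12 (70.6%) were lower and 5 (29.4%) higher in coverage, shares near those of all genes, with a median change of -4.45 points. *Klf5* had 6 lost domains and went from 44.7% to 31.1%, *Zfp750* had 4 lost and *Grhl1*, *Cebpa* and *Hes1* 3 each. The exception was *Prdm1*, the gene of BLIMP1, with 5 gained and 2 lost domains and coverage of 17.6% at D0, 30.6% at W2, 36.7% at W6 and 34.5% at W12. Of 19 genes of epidermal differentiation, 16 (84.2%) were lower and 3 higher, with a median change of -5.58 points, 8 (42.1%) had several lost and none had several gained domains, against 31.3% and 7.93% of all genes. *Krt2*, a keratin of the upper epidermis, went from 67.2% at D0 to 35.5% at W2 and 39.2% at W12, and *Lor*, the gene of loricrin, had 6 lost domains and 1 gained. *Flg*, *Rptn*, *Hrnr*, *Dsc1*, *S100a8* and *S100a9* had 3 lost domains each, some of which neighbouring genes share. Of 11 basal, stress and simple keratins, 8 (72.7%) were lower and 3 higher, and *Krt8* and *Krt18* had 3 and 4 lost domains. Of 11 cadherins and desmosomal genes, 9 (81.8%) were lower and 2 higher, and *Dsg3*, *Dsc2*, *Dsc3* and *Jup* had 4 lost domains each.

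In the signalling lists losses outnumbered gains, as over all genes. Over all lists, 37 of 279 members had several gained and 100 several lost domains, but with D0 and W12 lists of equal length these counts were 60 and 59. The shares of all genes were 31.3% with several lost and 7.93% with several gained domains, in windows with a median of 117 kb, and the windows of the Wnt, Hedgehog, BMP and Notch lists had medians of 143, 170, 128 and 136 kb. Of 31 Wnt pathway genes, 13 (41.9%) had several lost and 4 (12.9%) several gained domains, and the median change was -5.42 points. *Axin2*, a target and inhibitor of Wnt signalling, had 5 lost and 0 gained domains and went from 59.3% to 38.8%, and *Lef1* had 8 lost and 1 gained. *Wnt4*, *Wnt7b*, *Wnt10b*, *Wnt16*, *Fzd2*, *Lrp6*, *Tcf7l2*, *Znrf3* and *Rnf43* had between 3 and 7 lost domains, while *Sfrp1* and *Lrp5* had 3 gained each. Of 12 Hedgehog genes, 6 had several lost and 2 (16.7%) several gained domains. *Gli3* (10 lost, 2 gained), *Cdon* (6 and 0), *Smo* (5 and 1), *Hhip* (3 and 0) and *Sufu* (3 and 1) leaned to losses.

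Of 25 genes of the BMP and TGF-beta pathway, 11 (44%) had several lost and 4 (16%) several gained domains. *Bmpr1b*, a BMP receptor, had 21 lost and 0 gained domains and went from 20.1% at D0 to 5.83% at W2 and 7.96% at W12. *Bmpr2* and *Tgfbr3* had 9 lost and 1 gained each, *Bmpr1a* and *Smad4* 5 and 1, and *Bmp2* and *Bmp7* 4 and 0, with *Id3*, *Smad2* and *Tgfb1* at 3 lost. The genes with several gains were *Tgfbr1* (4 gained, 3 lost), *Tgfbr2* (3 and 2), *Smad3* (3 and 1) and *Fst* (3 and 2), an inhibitor of activins. Of 14 Notch pathway genes, 6 (42.9%) had several lost and 3 (21.4%) several gained domains. *Rbpj*, the DNA-binding effector of Notch, had 8 gained and 4 lost, the coactivators *Maml2* and *Maml3* had 5 and 4 gained with 8 and 17 lost, and *Notch1* and *Maml1* had 4 and 3 lost. With lists of equal length *Maml2* and *Maml3* each had 1 more gained than lost domain. Of 11 genes of EGF receptors and ligands, *Tgfa*, a ligand, had 5 gained and 0 lost domains and coverage of 38.7% at D0 and 53.6% at W12, and *Erbb3*, *Erbb4* and *Btc* had 5, 7 and 4 lost.

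Of the 4 genes of the RUNX family list, 3 had several gained and 2 several lost domains, against 7.93% and 31.3% of all genes. Their windows had a median of 241 kb against 117 kb for all genes, and the part of this in the counts was not tested. None of the 4 was covered less at W12, with a median change of 5.48 points. *Runx2* had 6 gained and 7 lost domains and *Cbfb*, the shared partner of RUNX proteins, 3 gained and 2 lost. Of 10 SOX genes, *Sox5* had 11 gained and 13 lost, *Sox13* 4 gained and 0 lost, and *Sox21* 3 of each, while *Sox2* and *Sox4* had 3 lost. Coverage of *Sox13* was 12.4%, 9.43%, 35.2%, 27.3% and 29.8% in order from D0 to W12. *Sox13* and *Sox6*, related SOXD factors, thus differed from D0 in opposite directions. Of 9 AP1 genes, 7 (77.8%) were lower and 2 higher in coverage, against 61.6% lower and 24.2% higher of all genes, none had several gained and *Fosl2*, *Jun* and *Jund* had 3 lost domains each.

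Of 14 genes of hemidesmosomes and basement membrane, *Itga6*, a basal integrin, had 6 gained and 3 lost domains and *Col4a1* 4 of each, and *Dst*, *Lamb3* and *Lama3* had 7, 7 and 4 lost. With lists of equal length *Lamb3* had 1 more gained than lost domain. Of 14 genes of epithelial-mesenchymal transition and invasion, 7 were lower and 6 higher in coverage, with a median change of -0.0936 points. Several gained domains were at 4 (28.6%) and several lost at 1 (7.14%), against 7.93% and 31.3% of all genes. Those with several gained were *Snai1* (5 gained, 2 lost), *Zeb1* (3 and 1), *Tnc* (3 and 2) and *Mmp13* (3 and 1). *Fn1*, the gene of fibronectin, had 8 lost and 0 gained and went from 21.2% to 8.83%. Of 13 cell cycle genes and oncogenes, *Cdk6* had 5 gained and 5 lost, *Cdkn2a* 3 gained and 0 lost with coverage of 12.8% at D0 and 30.8% at W12, and *Bcl2* (9), *Mycl* (3), *Ccnd1* (3) and *Met* (3) leaned to losses. Of 15 genes of keratinocyte cytokines and inflammation, 9 (60%) were lower and 6 (40%) higher, with several gains at *Ccl2*, where gained minus lost turned to -1 with flanks of 10 kb, and several losses at *Ccl20* (4) and *Cxcl2* (3).

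The sorted cells were checked against marker genes. The windows of the basal epidermal markers *Krt5*, *Krt14*, *Trp63*, *Itga6* and *Itgb4* were covered to between 42.0% and 53.4% at D0 and between 44.8% and 56.7% at W12, well above the medians of all genes. The counts below stand against all genes, of which 24.2% were higher and 61.6% lower in coverage at W12. Several gained domains were at 7.93% and several lost at 31.3% of all genes. For melanocytes, 5 of 7 markers were higher and 1 lower in coverage, with several gained domains at *Mitf* (9), *Dct* (6) and *Sox10* (4), while *Tyr* had no domain in either list and *Kit* 1.10% and 1.54%. Several lost domains were at *Mitf* (4), *Dct* (4) and *Pmel* (5). For fibroblasts 6 of 7 markers were lower, with *Pdgfrb* at 6 and *Dcn* at 4 lost domains, and *Col1a2*, *Col3a1* and *Lum* were covered to at most 1.74% in both lists. For immune cells 5 of 8 were lower, with *Ptprc* (5), *Cd3e* (4) and *Csf1r* (4) at several lost. All 4 muscle markers were lower, *Des* from 37.1% to 17.6% with 4 lost domains and *Myh11* with 4. Of 4 endothelial markers 2 were higher, *Cdh5* with 3 gained domains, and *Tek* had 3 lost. Of 5 neuronal and Merkel cell markers 4 were lower, with *Rbfox3* at 5 and *Tubb3* at 3 lost. The part of other cell types in the gains and losses was not tested.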

How the data were processed

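H3K4me1 and H3K27ac were profiled by MINT-ChIP. Per the submitters' processing notes, bcl2fastq, Bowtie2 2.2.9, Picard, SAMtools 1.9, MACS2 2.1.1, SICER 0.0.36 and deepTools 2.5.4 were used, and the study's methods name epic2 for broad domains. Caller settings and controls were not given in the sources used here. The authors pooled the libraries of a group before calling, so each list is 1 sample. The deposited skin H3K4me1 lists hold domains in bins of 200 bp with a p-value and a score each. The deposited H3K27ac lists hold a score, a fold enrichment and a −log10 q-value for each peak. The depth behind these lists is unknown. The lists use GRCm38 (mm10).

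Overlaps of 1 bp were computed in python 3.11.15 with numpy 2.4.6, pandas 2.3.3 and scipy 1.17.1, and figures were drawn with matplotlib 3.10.9. The overlap code was tested on simulated intervals. The 2 mitochondrial D0 domains were set aside. Genes and start sites came from GENCODE M21 (basic), with 27 second genes of a repeated symbol left out. Windows reached 50 kb beyond either end of a gene. Sequence came from RefSeq GRCm38, and windows needed 90% called bases.

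Genes were named by gained minus lost domains, 12 each way and 8 each way for bodies under 50 kb, leaving out a gene when most of its domains lay in the window of one already taken. List members with at least 3 gained or lost domains and a few fixed genes were also named. A few items that these rules name are not reported here. Members, rule and gene lists were chosen with earlier results of these data known. Alternatives changed the overlap, the list length, the p-value limit, the joining of domains, the sex chromosomes, the flank, the number that counts as several, the distal distance and the motif window.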

Additional observations from a re-analysis of the deposited data

How the results depend on the processing

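No paired analysis was possible because the replicates of each group had been pooled into 1 list, and for the same reason no replicate could be left out. The number of genes with several gained domains (1738) was 3907 when several meant at least 2, 407 when it meant at least 5, 638 with flanks of 10 kb and 2813 with lists of equal length. That with several lost (6859) was 11003, 2318, 2255 and 3987 in the same order. Among members of the gene lists, 37 with several gained became 76, 16, 18 and 60, and 100 with several lost became 166, 37, 37 and 59, so that with equal lengths members with gains were as many as those with losses. In the central 400 bases the difference between gained and shared domains was 7.65 percentage points for SOX, 4.91 for RUNX, -0.12 for GATA and 9.02 for AP1, and that between lost and shared domains 0.38, -1.66, 6.06 and -2.42. Outside repeats, SOX in lost domains differed by 0.89 points, GATA by -0.18 in gained and 7.62 in lost domains, and AP1 in gained domains by 13.88. Gained minus lost domains turned sign for *Ccl2* (-1) with flanks of 10 kb and, with lists of equal length, for *Foxp1* (1), *Gm20388* (4), *Lamb3* (1), *Maml2* (1) and *Maml3* (1). The causes were not tested beyond what each setting changes by its construction. Of 152 values under alternatives other than those of single genes, 124 stayed within the limit set for a move. Since the depth of the H3K4me1 libraries is unknown, weak domains limit every count.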

Other observations

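Outside the comparison of lists, the place of H3K27ac summits at W12 differed from that at D0. Of 33984 summit windows of W12 H3K27ac peaks, 10860 lay outside every W12 H3K4me1 domain, and these summit windows had a mean repeat content of 27.6%, against 16.3% for summits in shared domains. At D0, 3811 of 30268 lay outside every D0 domain, with a mean repeat content of 11.8% and a median GC content of 64.5%, against 48% at W12.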
